A study of Mus musculus with 12 samples.

Results

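The transcripts of 5 Hoxa genes (Hoxa3, Hoxa5, Hoxa7, Hoxa9 and Hoxa10) and of their cofactor genes Meis1 and Pbx3 were followed in cultured mouse bone marrow progenitors that carried Myc or a control virus and were labelled Zfx ko or Zfx wt. The genes were chosen by symbol, as the Hox and cofactor program of blood progenitors, with earlier results of these data known. Each of the 7 had 1 probe set under its own symbol, so the description rests on 7 of 35556 probe sets and 7 of 19938 genes with a probe set of 1 symbol. Hoxa9 fell in the cells labelled Zfx ko with either virus. Meis1 rose in them with the Myc virus (with the GFP virus its difference in the same direction did not pass over all genes in the main fit). None of the 7 passed the main test between the Myc and the GFP virus. With the replicate number as a block, Hoxa9 alone passed there, as lower with Myc in each genotype.

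Hox genes encode homeodomain transcription factors and lie in clusters whose order along the chromosome follows their order of use along the body axis. In blood formation, genes of the Hoxa cluster, above all Hoxa9, are used by stem and progenitor cells and are switched off as myeloid cells mature. Meis1 and Pbx3 belong to the TALE class of homeodomain proteins, which bind DNA together with Hox proteins, and Hoxa9 with Meis1 is a known pair of drivers of acute myeloid leukaemia in mice. Zfx is an X-linked zinc finger transcription factor needed by blood stem cells, and Myc is a transcription factor that drives growth and division.

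The study had 12 arrays, 3 in each of 4 groups: Myc virus Zfx ko, Myc virus Zfx wt, GFP virus Zfx ko and GFP virus Zfx wt. Progenitors positive for c-Kit were taken from the bone marrow of mice that carried CreER, a Cre recombinase switched on by tamoxifen, and all mice received tamoxifen by mouth (5 mg daily for 3 days). Mice of the ko groups were Zfx fl/y CreER and mice of the wt groups Zfx wt/y CreER, so the recombinase and the drug were shared by every group. The retrovirus carried Myc with GFP, or GFP alone. After 48 hours the GFP+ cells were sorted, and they then grew for 4 days in medium with 20% serum and 10 ng/mL each of IL-3, IL-6 and SCF. The labels do not give the promoter behind CreER, or whether arrays with equal replicate numbers share an animal or a culture, so the p-values below measure the spread between arrays, which may be technical. The series asks how loss of Zfx changes the expression that Myc induces.

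The labels were checked on the targeted genes. The Zfx probe set (10605729, chromosome X) had intensities of 1036, 1116 and 991 in Myc virus ko cells, against 1019, 991 and 966 in Myc virus wt cells. It had 996, 972 and 1094 in GFP virus ko cells, against 862, 987 and 989 in GFP virus wt cells. It was thus not lower in the arrays labelled ko (log2 difference 0.08 with Myc and 0.11 with GFP, limma adjusted p = 0.789 and 0.619), and the part of the transcript that its probes cover is not given in the sources used here. Every direction below that is drawn from ko and wt therefore rests on the labels. The Myc probe set (10424400, chromosome 15) was 1.87-fold higher with the Myc virus than with the GFP virus in ko cells (adjusted p = 3.423e-04) and 1.74-fold higher in wt cells (adjusted p = 7.242e-04). The granule protein genes Mpo (9644 to 14614 over the 12 arrays) and Elane (11088 to 17316) and the receptor gene Kit (691 to 1582) were bright on every array. Of the 12 listed genes of myeloid progenitors 1 was under the array's median on every array. Of 15 listed genes of maturing neutrophils 0 were, so brightness alone does not set progenitors apart from other myeloid cells in these cultures. The B cell genes Cd79a (33.2 to 40.3) and Pax5 (64.6 to 76.3) and the T cell genes Cd3e (99.9 to 128) and Cd3d (50.2 to 62.7) were dim, under array medians of 127 to 137. Of the whole lists 6 of 8 B cell genes and 7 of 7 T cell genes were under the median on every array; the B cell exceptions were Cd79b and Igll1. No marker was at 0.

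The promoters of Hoxa9, of its neighbour Hoxa7 and of Meis1 are shown because Zfx and Myc are both DNA-binding factors. They hold the 250 bases before the RefSeq start, in build GRCm38.p6, each written 5′ to 3′ on the minus strand, which is the strand of each of these genes. Hoxa9 lies at chr6:52227371-52227620, Hoxa7 at chr6:52218574-52218823 and Meis1 at chr11:19018970-19019219. No base is in capitals because none of the motifs searched was found in these 3 windows.
Hoxa9: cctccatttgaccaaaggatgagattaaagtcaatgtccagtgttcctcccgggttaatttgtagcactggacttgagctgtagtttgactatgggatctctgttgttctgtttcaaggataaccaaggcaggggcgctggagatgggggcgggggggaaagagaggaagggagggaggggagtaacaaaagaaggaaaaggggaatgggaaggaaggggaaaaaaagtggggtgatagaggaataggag
Hoxa7: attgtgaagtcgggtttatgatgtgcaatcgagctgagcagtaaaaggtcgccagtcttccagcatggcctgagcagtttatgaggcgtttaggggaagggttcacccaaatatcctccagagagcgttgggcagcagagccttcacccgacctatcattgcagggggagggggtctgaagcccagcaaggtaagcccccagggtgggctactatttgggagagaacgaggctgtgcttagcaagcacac
Meis1: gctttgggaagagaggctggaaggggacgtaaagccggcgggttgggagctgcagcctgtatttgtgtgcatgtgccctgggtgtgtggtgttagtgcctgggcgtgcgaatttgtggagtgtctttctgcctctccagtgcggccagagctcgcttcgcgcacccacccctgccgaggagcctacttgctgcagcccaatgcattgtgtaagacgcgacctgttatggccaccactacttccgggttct

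RefSeq promoters matched 6 of the 7 members, with 7 entries since Hoxa10 had 2; Pbx3 was not among them. The Meis1 start used here is not the outer bound of the gene in the RefSeq gene table. The letters searched on both strands were AGGCCT, the core of the motif known for Zfx, CACGTG, the E-box bound by Myc with Max, and TGACAG, the motif known for Meis proteins. AGGCCT and CACGTG read the same on both strands, and no matches overlapped. AGGCCT occurred in 0 of the 7 entries and in 8.7% of 32851 promoter windows of the same length, and CACGTG in 0 of the 7 and in 6.02%. TGACAG occurred only in the Hoxa3 window, as CTGTCA 13 bases before the start, and in 15.86% of all windows. A missing match says only that these letters are not in these windows. By base composition the Hoxa9 window had 49.6% G and C and the Meis1 window 59.6%, around a median of 52.4% for all windows.

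Hoxa9, the leading Hoxa gene of blood progenitors, was lower in the cells labelled Zfx ko with both viruses. Its probe set (10544788, chromosome 6) had intensities of 161, 115 and 139 in Myc virus ko cells, against 381, 294 and 396 in Myc virus wt cells. With the GFP virus it had 203, 148 and 167 in ko cells, against 433, 425 and 523 in wt cells. Every ko array lay below every wt array, whichever virus the cells carried. Intensities are the authors' normalised values on a linear scale, and differences are given in log2 units with the standard error from limma, fitted over all genes.

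**Figure D1:**
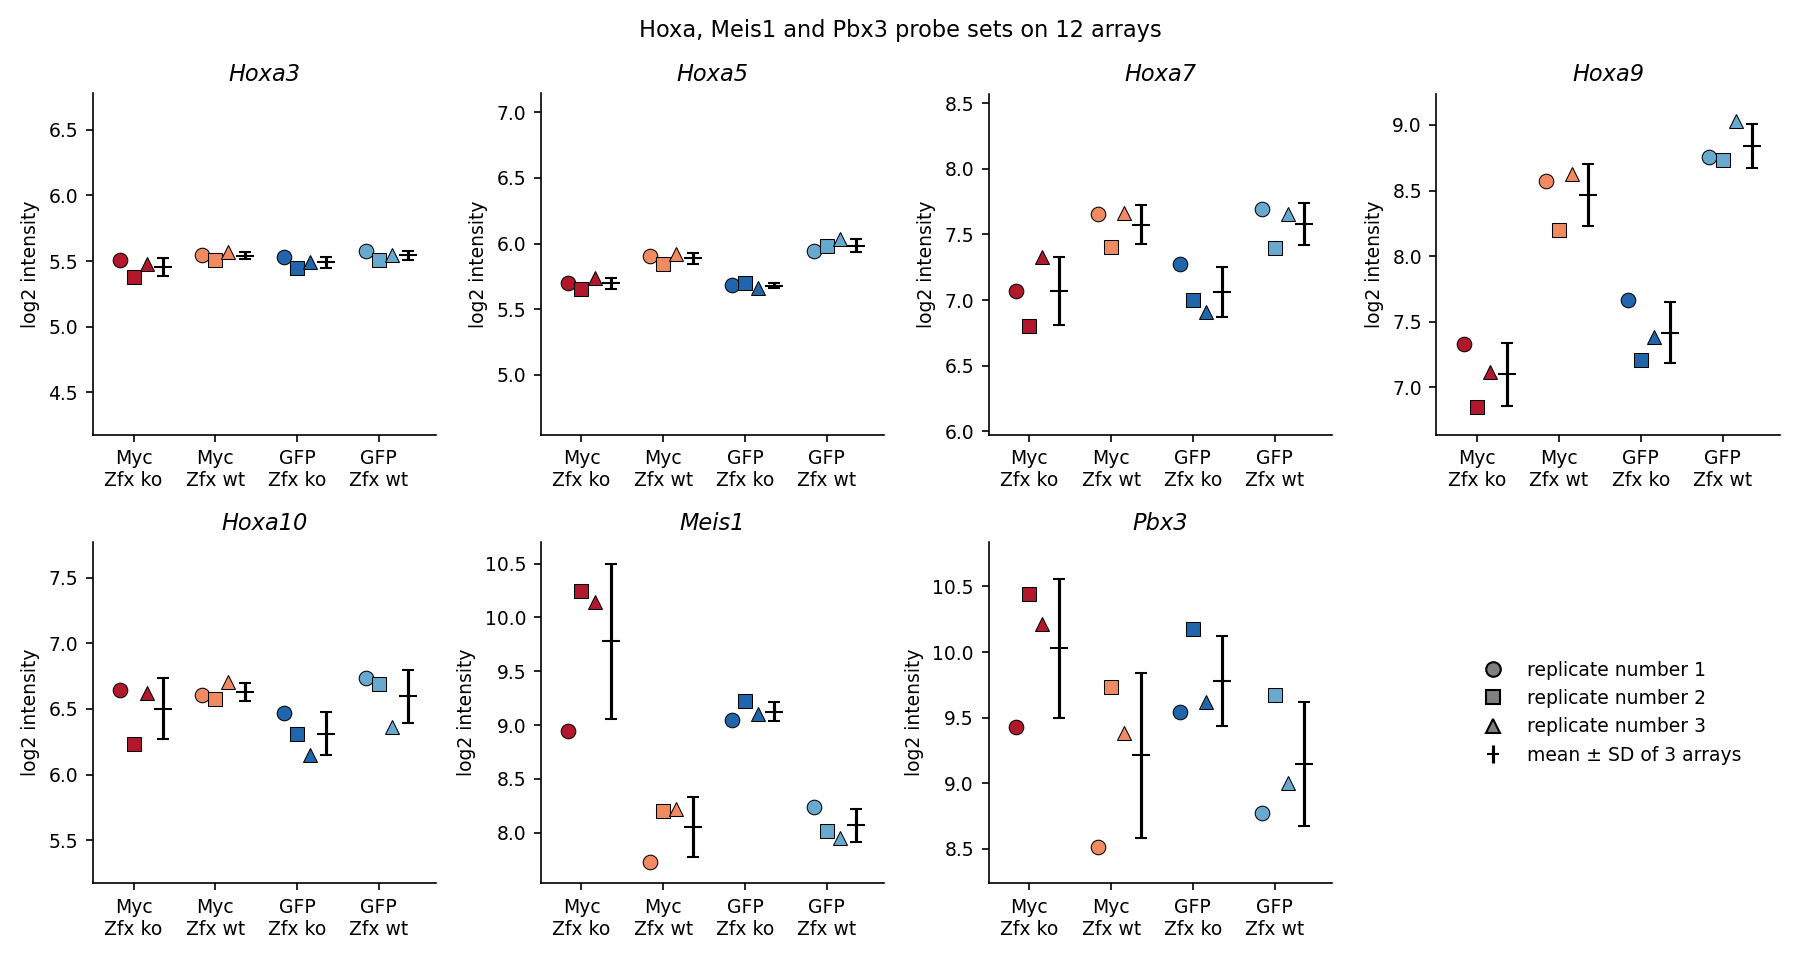
Log2 intensity of the 7 probe sets on each of the 12 arrays, with 1 panel per gene and the groups in the order Myc Zfx ko, Myc Zfx wt, GFP Zfx ko and GFP Zfx wt; symbols give the replicate number and bars the mean ± SD of 3 arrays. Every panel covers at least the same span of log2 units around its own middle. Hoxa9 and Hoxa7 sit lower and Meis1 higher in both ko groups, while Pbx3 spreads widely within each group.

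The mean Hoxa9 intensity was 138 ± 22.8 in Myc virus ko cells and 357 ± 55.4 in Myc virus wt cells (SD, n = 3 each). It was 172 ± 27.8 in GFP virus ko cells and 460 ± 54.5 in GFP virus wt cells (SD, n = 3 each). Hoxa9 fell by 1.37 ± 0.16 (SE) on the log2 scale with the Myc virus, a level 2.58-fold lower in ko (95% interval 2.01 to 3.31, limma adjusted p = 0.000971). With the GFP virus it fell by 1.42 ± 0.16, a level 2.68-fold lower in ko (2.09 to 3.44, adjusted p = 0.0008405). Ranked by p among 19938 genes, Hoxa9 stood at place 114 with the Myc virus and place 94 with the GFP virus. It was lower in 3 of 3 same-numbered pairs of arrays with each virus. The call held in 21 of 21 alternative fits with each virus, the highest adjusted p being 0.0148 with Myc and 0.00757 with GFP. Here and below the alternative fits include an average over the other factor (both viruses or both genotypes), which holds arrays from outside the comparison. In bulk RNA such as this, fewer cells that express a gene and less RNA per cell cannot be told apart.

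Hoxa7 and Hoxa5, which lie next to Hoxa9 on its 3′ side with Hoxa6 between them, were also lower in ko cells, by less. Hoxa7 (10544779) had intensities of 134, 112 and 161 in Myc virus ko cells, against 202, 169 and 203 in Myc virus wt cells. It had 155, 128 and 120 in GFP virus ko cells, against 207, 168 and 201 in GFP virus wt cells. The ko and wt arrays did not overlap with either virus. The log2 difference was -0.51 ± 0.15 with Myc (1.42-fold lower) and -0.52 ± 0.15 with GFP (1.43-fold lower), which did not pass over all genes (limma adjusted p = 0.0804 and 0.0866). In a fit that takes the replicate number as a block Hoxa7 passed (limma adjusted p = 0.00999 and 0.0107). With Myc it passed in 3 of 21 alternative fits, the others being the average over both viruses and the fit without Myc virus ko replicate 3 (adjusted p = 0.0472). With GFP it passed in 4 of 21, the others being that average, a second quantile normalisation and array weights. Over the alternatives the adjusted p lay between 0.00876 and 0.243 with Myc and between 0.00786 and 0.267 with GFP. The 0.00876 is that of the average over both viruses.

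Hoxa5, a gene of the middle of the cluster, was dim on all 12 arrays, under the array's median. Its probe set (10544768) had 52.0, 50.3 and 53.3 in Myc virus ko cells, against 59.8, 57.3 and 60.6 in Myc virus wt cells. It had 51.3, 51.8 and 50.6 in GFP virus ko cells, against 61.4, 63.0 and 65.6 in GFP virus wt cells. The values were close within each group, and ko lay below wt on every array. Hoxa5 fell by 0.30 ± 0.05 on the log2 scale with the GFP virus, 1.23-fold lower in ko (limma adjusted p = 0.0057, past the threshold in 20 of 20 alternative fits). With the Myc virus it fell by 0.19 ± 0.05, 1.14-fold lower (adjusted p = 0.0447). That call was close to the threshold. It held in 6 of 20 alternative fits, the average over both viruses among them. It held in 0 of the 12 that left out 1 array, where the adjusted p was 0.0539 to 0.162.

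Hoxa10 and Hoxa3 did not pass in any comparison. Hoxa10 (10544798), the 5′ neighbour of Hoxa9 and like it a posterior gene used in progenitors, averaged 91.3 ± 13.9 in Myc virus ko cells and 99.0 ± 4.76 in Myc virus wt cells (SD, n = 3 each). It averaged 79.7 ± 8.99 in GFP virus ko cells and 97.3 ± 13.2 in GFP virus wt cells (SD, n = 3 each). Between ko and wt the log2 difference was -0.13 (95% interval -0.42 to 0.17) with Myc and -0.29 (-0.58 to 0.01) with GFP, with limma adjusted p of 0.831 and 0.367. Hoxa3 (10544756), an anterior gene with a known role in the pharyngeal arches and thymus, stayed between 41.6 and 47.6 over all 12 arrays. Its log2 difference was -0.09 (-0.20 to 0.03) with Myc and -0.05 (-0.17 to 0.06) with GFP (adjusted p = 0.518 and 0.799). Both probe sets were under the array's median on all 12 arrays, so a change in a low transcript may not have been detectable here.

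Meis1, the cofactor that binds DNA with Hoxa9, rose in the cells labelled Zfx ko with the Myc virus. Its probe set (10384504, chromosome 11) had intensities of 493, 1215 and 1129 in Myc virus ko cells, against 213, 294 and 299 in Myc virus wt cells. It had 529, 598 and 550 in GFP virus ko cells, against 303, 259 and 248 in GFP virus wt cells. Every ko array was above every wt array, and replicate 1 of the Myc virus ko cells was well below the other two of its group. The mean was 946 ± 394 in Myc virus ko cells and 269 ± 48.5 in Myc virus wt cells (SD, n = 3 each). It was 559 ± 35.2 in GFP virus ko cells and 270 ± 29.1 in GFP virus wt cells (SD, n = 3 each).

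With the Myc virus Meis1 rose by 1.73 ± 0.29 on the log2 scale, 3.31-fold higher in ko (95% interval 2.13 to 5.14, limma adjusted p = 0.006587). The pairs of arrays gave 1.21, 2.05 and 1.92. The call held in 20 of 21 alternative fits and was lost when only these 2 groups were fitted (adjusted p = 0.0664). With the GFP virus the difference was 1.05 ± 0.29, 2.08-fold higher in ko (1.34 to 3.22), which did not pass over all genes (adjusted p = 0.0764). It passed in 5 of 21 alternative fits. Among these were the blocked fit (limma adjusted p = 0.0212), array weights, the fit of only these 2 groups and the average over both viruses. The remaining one was the fit without replicate 1 of the Myc virus ko cells (adjusted p = 0.00277). That array is outside this comparison and enters it only through the estimate of the spread shared by all groups. Over the alternatives the adjusted p lay between 0.00141 and 0.240. The 0.00141 is that of the average over both viruses, which also holds the Myc virus arrays.

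Pbx3, a TALE partner of Hox and Meis proteins, differed in the same direction as Meis1 in each pair of arrays, but its arrays spread widely within a group. Its probe set (10481857, chromosome 2) had 690, 1392 and 1188 in Myc virus ko cells, against 366, 852 and 668 in Myc virus wt cells. It had 746, 1156 and 788 in GFP virus ko cells, against 437, 818 and 512 in GFP virus wt cells. Replicate 2 was the highest array of every group, and the ko and wt groups overlapped with both viruses. The log2 difference was 0.82 ± 0.36 with Myc (1.76-fold) and 0.63 ± 0.36 with GFP (1.55-fold), with limma adjusted p of 0.304 and 0.521.

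Within same-numbered pairs the Pbx3 differences were much tighter, at 0.91, 0.71 and 0.83 with the Myc virus and 0.77, 0.50 and 0.62 with the GFP virus. The block on replicate number let Pbx3 pass in both comparisons (limma adjusted p = 0.00432 with Myc and 0.0168 with GFP). The other alternatives did not pass, with adjusted p of up to 0.709 with Myc and up to 0.831 with GFP.

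**Figure D2:**
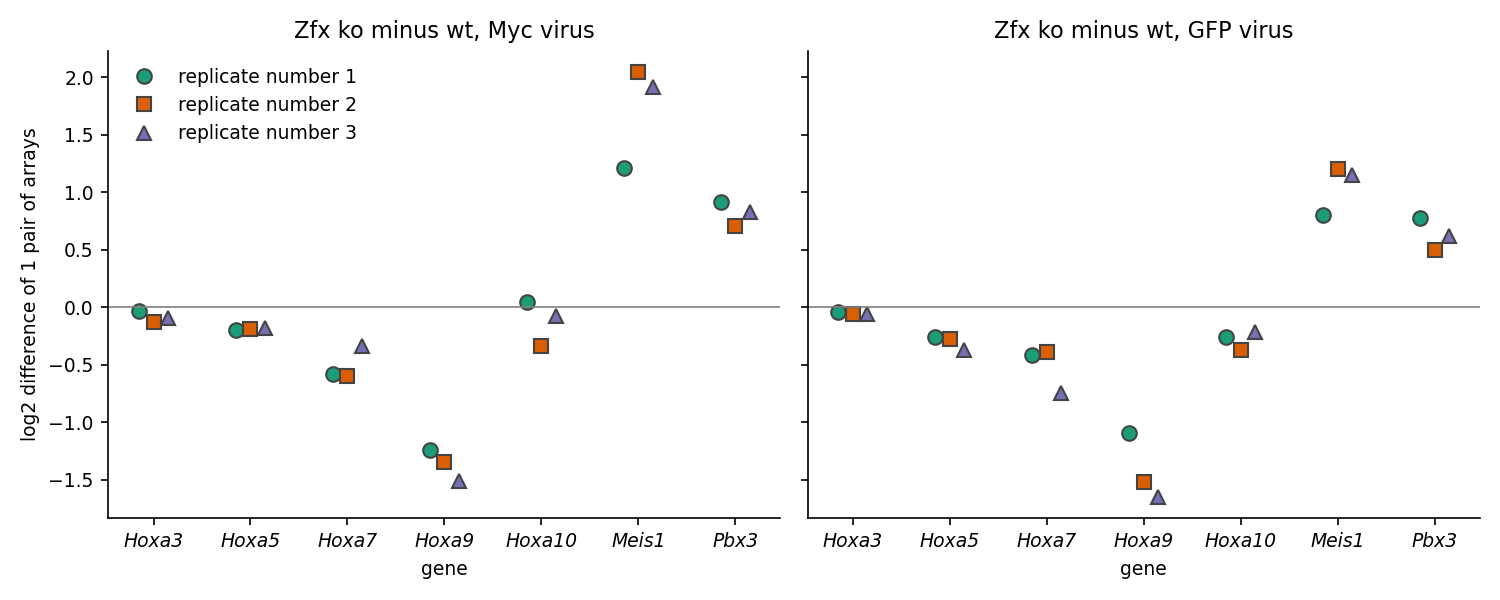
Log2 difference of each same-numbered pair of arrays, Zfx ko minus wt, for the 7 genes; the left panel holds the Myc virus and the right panel the GFP virus. All 3 pairs are below 0 for Hoxa9, Hoxa7, Hoxa5 and Hoxa3 and above 0 for Meis1 and Pbx3 with both viruses, and for Hoxa10 1 pair of the Myc virus is above 0.

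Counted over the members, 1 of 7 rose (Meis1) and 2 of 7 fell (Hoxa5 and Hoxa9) in ko cells with the Myc virus. Among all 19938 genes 5.46% passed there, 1.74% as higher and 3.72% as lower. With the GFP virus 0 of 7 rose and 2 of 7 fell (Hoxa5 and Hoxa9), where 4.11% of all genes passed, 1.17% as higher and 2.94% as lower. In the blocked fit 2 of 7 rose (Meis1 and Pbx3) and 3 of 7 fell (Hoxa5, Hoxa7 and Hoxa9) with each virus. Of all genes 6.05% rose and 8.03% fell in that fit with the Myc virus, and 5.12% rose and 7.12% fell with the GFP virus. The groups did not overlap for 5 members with the Myc virus and 4 with the GFP virus, against 19.5% and 17.9% of all genes. These counts are descriptions only, since the members were chosen with earlier results of these data known. The median log2 difference of the 7 was -0.13 with Myc and -0.29 with GFP, beside a median of all genes of 0.00 to 2 decimals. The comparisons with the Myc virus and with the GFP virus share no arrays, but they share the same estimate of the spread. Same-numbered arrays of different groups also correlated in their deviations from the group means (0.401 to 0.848). The comparisons can therefore not be taken as independent. When the Zfx difference was averaged over both viruses, an alternative chosen after seeing the data, 4 of 7 passed (Hoxa5, Hoxa7, Hoxa9 and Meis1), where 12.1% of all genes did.

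**Figure D3:**
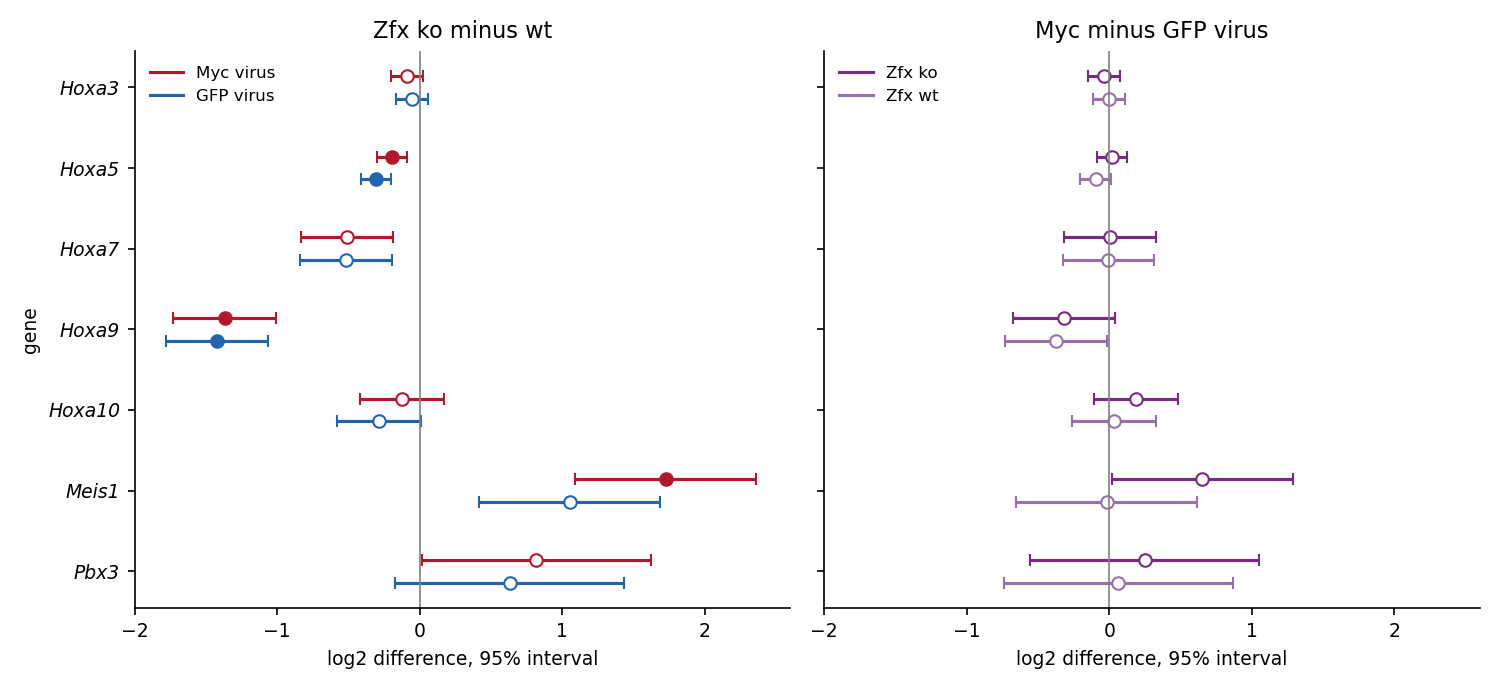
Log2 differences of the 7 genes with 95% intervals of single genes from limma; filled points have an adjusted p under 0.05 over all genes and open points do not. The left panel shows Zfx ko minus wt with the Myc and the GFP virus, the right panel Myc minus GFP virus in ko and wt cells, where every point is open.

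None of the members passed between the Myc and the GFP virus in the main fit, and the blocked fit called Hoxa9 alone. In ko cells 0 of 7 passed with limma, with 1 of 7 (Meis1) at an unadjusted p under 0.05, where 13.2% of all genes passed and 24% had such an unadjusted p. In wt cells 0 of 7 passed, with 1 of 7 (Hoxa9) at an unadjusted p under 0.05, where 9.28% of all genes passed and 20.4% had such an unadjusted p. The median log2 difference of the members was 0.02 in ko cells and -0.01 in wt cells.

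Hoxa9 was lower with Myc than with GFP in each pair of arrays, without passing over all genes. It was 1.25-fold lower with Myc than with GFP in ko cells (log2 difference -0.32 ± 0.16, limma adjusted p = 0.280) and 1.29-fold lower in wt cells (-0.37 ± 0.16, adjusted p = 0.223). All 3 pairs had the lower value with Myc in each genotype. The blocked fit passed it as lower in ko cells (adjusted p = 0.0424) and in wt cells (adjusted p = 0.0265). It was then the 1 of 7 members called in each, where 10.4% and 8.25% of all genes were called lower. Over the alternatives its adjusted p lay between 0.0424 and 0.619 in ko cells and between 0.0265 and 0.564 in wt cells. In order of its group means Hoxa9 was highest in GFP virus wt cells, then Myc virus wt, GFP virus ko and Myc virus ko cells. The ko arrays of the 2 viruses overlapped, while the wt arrays of the 2 viruses did not, nor did Myc virus wt and GFP virus ko arrays.

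The mean of Meis1 was higher with Myc than with GFP in ko cells, but the difference did not pass. In ko cells its log2 difference between Myc and GFP was 0.65 ± 0.29 (limma adjusted p = 0.192), and the pairs gave -0.10, 1.02 and 1.04. Without replicate 1 of the Myc virus ko cells it was 1.07 and passed (adjusted p = 0.00385), within a range of 0.00385 to 0.516 over the alternatives. In wt cells the difference was -0.02 ± 0.29 (adjusted p = 0.991). By its means Meis1 was highest in Myc virus ko cells, then in GFP virus ko cells, whose arrays overlapped, and lowest in the wt groups, which also overlapped each other. Pbx3 differed between viruses by 0.25 ± 0.36 in ko cells and 0.06 ± 0.36 in wt cells (adjusted p = 0.830 and 0.974). For Hoxa5 the difference was 0.02 in ko cells and -0.10 in wt cells (adjusted p = 0.934 and 0.310), and for Hoxa10 0.19 and 0.03 (adjusted p = 0.500 and 0.962). Hoxa3 differed by -0.04 in ko cells (adjusted p = 0.830) and by -0.0024 in wt cells (adjusted p = 0.994). For Hoxa7 the difference between viruses was 0.00 in ko cells (95% interval -0.32 to 0.33) and -0.01 in wt cells (-0.33 to 0.32).

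Whether the Zfx difference depended on the virus was tested as an interaction. It passed for 0 of 7 members and for 0 of 19938 genes (0%), with 343 genes (1.72%) at an unadjusted p under 0.05, none of them a member. The largest interaction among the members was that of Meis1, at 0.67 ± 0.41 on the log2 scale (limma unadjusted p = 0.127, adjusted p = 0.9999). For Hoxa9 it was 0.05 ± 0.23, with a 95% interval of -0.46 to 0.56. The others were 0.19 for Pbx3, 0.16 for Hoxa10, 0.11 for Hoxa5, 0.01 for Hoxa7 and -0.03 for Hoxa3, each with an adjusted p of 0.9999. In the blocked fit 1 gene passed (0.00502% of genes), Nck2, an adaptor protein gene that is not a member (adjusted p = 0.0198), named after its values were seen.

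The position of the members in the Hoxa cluster on chromosome 6 was set against their differences. In cluster order the measured genes were Hoxa2, Hoxa3, Hoxa4, Hoxa5, Hoxa6, Hoxa7, Hoxa9, Hoxa10, Hoxa11 and Hoxa13. The difference between ko and wt was strongest at Hoxa9 and smaller at each of its neighbours, with both viruses. Genes that overlap or share transcripts cannot be told apart by these probe sets, and a dim probe set may understate a change.

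**Figure D4:**
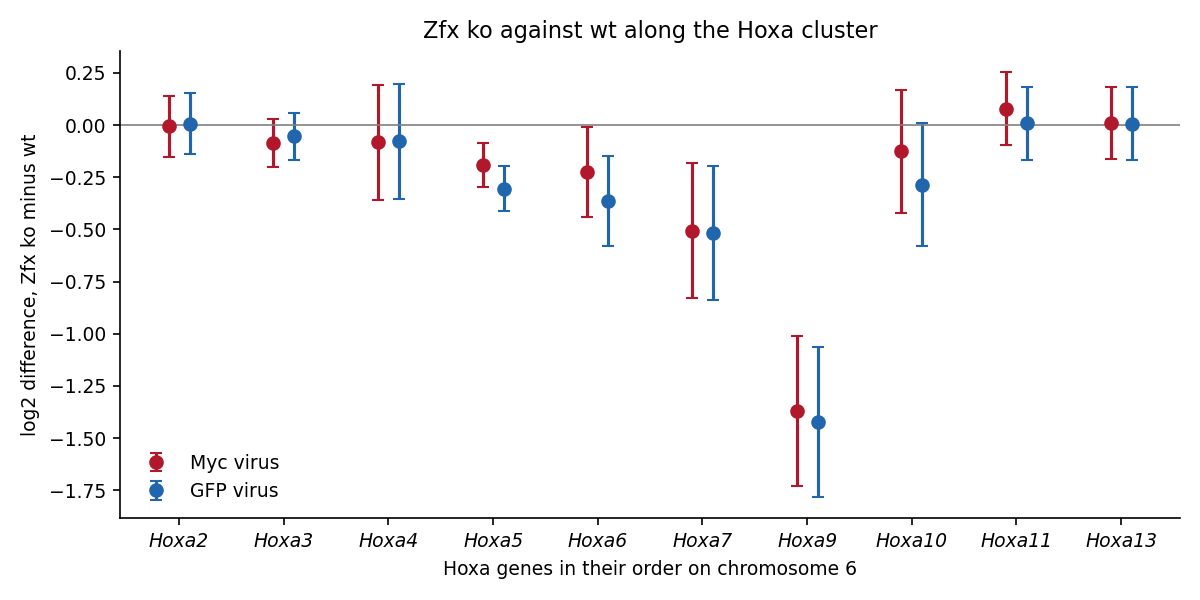
Log2 difference between Zfx ko and wt, with 95% intervals of single genes from limma, for the 10 measured Hoxa genes in their order on chromosome 6, with the Myc and the GFP virus. Distances between genes are not to scale. Hoxa9 is lowest with both viruses, Hoxa5, Hoxa6 and Hoxa7 lie between it and 0, and Hoxa2, Hoxa11 and Hoxa13 lie near 0.

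Of the other Hoxa genes measured, 0 of 5 passed between ko and wt with either virus, or between viruses in either genotype. Of all genes 5.46% passed between ko and wt with Myc and 4.11% with GFP. Between viruses 13.2% passed in ko cells and 9.28% in wt cells. Hoxa6, which lies between Hoxa5 and Hoxa7, was dim, under the array's median on all 12 arrays. Its probe set had 82.6, 66.6 and 75.4 in Myc virus ko cells, against 87.7, 86.8 and 86.7 in Myc virus wt cells. It had 85.3, 74.1 and 78.7 in GFP virus ko cells, against 104, 90.2 and 113 in GFP virus wt cells. Its ko arrays lay below its wt arrays with each virus, by -0.22 with Myc (limma adjusted p = 0.293) and -0.36 with GFP (adjusted p = 0.0718). The blocked fit passed it with the GFP virus (adjusted p = 0.00921), and as lower with Myc than with GFP in wt cells (adjusted p = 0.0475). Averaged over both viruses, its Zfx difference of -0.29 passed too (adjusted p = 0.0188). Hoxa2, Hoxa4, Hoxa11 and Hoxa13 differed between ko and wt by -0.08 to 0.08 on the log2 scale, and Hoxa4 was the only one of them above the array's median.

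Among the Hoxb, Hoxc and Hoxd genes 27 of 28 were measured, and 25 of these 27 were under the array's median on all 12 arrays. Hoxb4, known for expanding blood stem cells when overexpressed, was the 1 gene of the 27 that passed, and it fell in ko cells with both viruses. Hoxb4 was itself dim, under the array's median on all 12 arrays. It had 92.3, 79.9 and 97.4 in Myc virus ko cells, against 131, 119 and 128 in Myc virus wt cells. It had 96.5, 81.4 and 90.2 in GFP virus ko cells, against 126, 123 and 119 in GFP virus wt cells. The level was 1.41-fold lower in ko with Myc (limma adjusted p = 0.00747) and 1.37-fold lower with GFP (adjusted p = 0.0132). Of all genes 3.72% fell with Myc and 2.94% with GFP. The median log2 difference of the 27 was -0.01 with Myc and 0.00 with GFP.

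Of the other TALE genes 8 were measured, and 0 of 8 passed between ko and wt. Of all genes 5.46% passed there with the Myc virus and 4.11% with the GFP virus. In the blocked fit Pknox1, a partner of Pbx proteins, was lower in ko, 1.24-fold with Myc (limma adjusted p = 0.0286) and 1.25-fold with GFP (adjusted p = 0.0276). It was the 1 of 8 called there with each virus, where 8.03% and 7.12% of all genes were called lower. Pbx2, a close relative of Pbx3, was 1.35-fold lower with Myc than with GFP in ko cells (adjusted p = 0.0124) and 1.36-fold lower in wt cells (adjusted p = 0.0135). Meis2, a relative of Meis1, was 1.27-fold higher with Myc in ko cells (adjusted p = 0.0460). Of all genes 13.2% passed between viruses in ko cells and 9.28% in wt cells. The blocked fit also passed Pknox2 as lower with Myc, 1.88-fold in ko and 2.00-fold in wt cells (adjusted p = 0.00502 and 0.00419). It passed Tgif2 as higher, 1.31-fold and 1.33-fold (adjusted p = 0.0269 and 0.0257). In that fit 14.5% of all genes rose and 10.4% fell in ko cells, and 12.2% rose and 8.25% fell in wt cells.

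Genes listed for a link to the activation of Hoxa transcription, such as Kmt2a with its partners, were all measured (21 of 21). Between ko and wt 0 of 21 rose, 1 fell with the Myc virus and 2 fell with the GFP virus, with a median log2 difference of -0.03 and -0.06. Of all genes 3.72% fell with the Myc virus and 2.94% with the GFP virus. Kat6a, a histone acetyltransferase needed for Hoxa expression in blood progenitors, was 1.34-fold lower in ko with Myc (limma adjusted p = 0.00175) and 1.26-fold lower with GFP (adjusted p = 0.0076). Mllt1, a reader of acetylated histones, was 1.22-fold lower in ko with GFP (adjusted p = 0.00633). The blocked fit called 1 of 21 higher (Mllt3, a relative of Mllt1) and 4 of 21 lower with each virus. In that fit 6.05% of all genes rose and 8.03% fell with Myc, and 5.12% rose and 7.12% fell with GFP.

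Between viruses 4 of these 21 listed genes rose and 1 fell with Myc in ko cells, and 2 rose and 1 fell in wt cells. Of all genes 13.2% were called in ko cells and 9.28% in wt cells. In ko cells Mllt1 was 1.22-fold higher (limma adjusted p = 0.0035), Npm1, a nucleolar chaperone, 1.27-fold higher (adjusted p = 0.0104) and Ash2l, a Kmt2a partner, 1.26-fold higher (adjusted p = 0.0183). Aff1, an elongation factor subunit, was 1.29-fold lower in ko cells (adjusted p = 0.0117) and 1.35-fold lower in wt cells (adjusted p = 0.0078). Blocked by replicate number, 6 of 21 rose and 1 fell in each genotype, where 14.5% of all genes rose and 10.4% fell in ko cells, and 12.2% rose and 8.25% fell in wt cells.

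Polycomb genes, whose products keep Hox genes silent, were also all measured (12 of 12). Cbx2, a subunit of Polycomb complex 1, was 1.24-fold lower in ko with the Myc virus (limma adjusted p = 0.0317). It was the 1 of 12 that passed, beside 5.46% of all genes. With the GFP virus 0 of 12 passed, beside 4.11% of all genes. Between viruses 0 of 12 passed in either genotype, beside 13.2% of all genes in ko cells and 9.28% in wt cells. Blocked by replicate number, 3 of 12 fell with the Myc virus and 1 of 12 with the GFP virus in ko cells, beside 8.03% and 7.12% of all genes. In that fit 3 of 12 rose with Myc in each genotype, beside 14.5% of all genes in ko cells and 12.2% in wt cells.

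Reported target genes of Hoxa9 and Meis1 were followed as a list of 15 measured genes. Between ko and wt 0 of 15 passed with either virus, and the median log2 difference was -0.02 with Myc and 0.02 with GFP. Of all genes 5.46% passed there with the Myc virus and 4.11% with the GFP virus. Blocked by replicate number, 2 of 15 rose and 2 fell in ko with the Myc virus. Sox4 and Lmo2, transcription factor genes of progenitors, were 1.47-fold and 1.29-fold higher there, and Myb and Cdk6 1.29-fold and 1.18-fold lower. With the GFP virus 0 of 15 passed. In that fit 6.05% of all genes rose and 8.03% fell with Myc, and 5.12% rose and 7.12% fell with GFP. Between viruses 3 of 15 fell with Myc in ko cells and 2 of 15 in wt cells. Of all genes 13.2% and 9.28% passed there in either direction. Bcl2, an inhibitor of cell death, was 1.89-fold lower with Myc in ko cells (limma adjusted p = 0.00632) and 1.62-fold lower in wt cells (adjusted p = 0.0274). Cd34, a surface protein of progenitors, was 2.02-fold lower (adjusted p = 0.0137) and Erg 1.62-fold lower (adjusted p = 0.0126) with Myc in ko cells, and Igf1r, a growth factor receptor, was 1.55-fold lower in wt cells (adjusted p = 0.00704). Blocked by replicate number, 1 of 15 rose and 7 fell in ko cells, and 5 of 15 fell in wt cells. In that fit 14.5% of all genes rose and 10.4% fell in ko cells, and 8.25% fell in wt cells.

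Markers of other blood cells moved beside the Hoxa9 and Meis1 differences, and their part in these was not tested. Of 14 mast cell and basophil genes 5 fell in ko cells with Myc and 3 with GFP, beside 3.72% and 2.94% of all genes. Among these genes were the basophil proteases Mcpt8 (5.42-fold lower with Myc, 2.92-fold lower with GFP) and Prss34 (5.44-fold and 8.98-fold lower). Ms4a2, an IgE receptor subunit, and Gata2 were also lower in ko with the Myc virus (5.20-fold and 2.63-fold). The summed intensity of the 14 was 5355 to 9533 in Myc virus ko cells and 10750 to 26029 in Myc virus wt cells. It was 14610 to 19291 in GFP virus ko cells and 24220 to 30758 in GFP virus wt cells, so the sums did not overlap between ko and wt. Blocked by replicate number, 6 of the 14 fell with each virus, beside 8.03% of all genes with Myc and 7.12% with GFP.

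Of 9 measured erythroid genes 5 rose in ko cells with the Myc virus and 0 passed with the GFP virus. Of all genes 1.74% rose with the Myc virus and 4.11% passed with the GFP virus. The red cell skeleton gene Ank1 was 3.32-fold higher, the erythropoietin receptor gene Epor 2.90-fold, Ermap 2.72-fold and Rhd 1.58-fold. In the blocked fit 7 of 9 rose with the Myc virus and 1 of 9 (Gata1) with the GFP virus, beside 6.05% and 5.12% of all genes. Their summed intensity was 6129 to 11415 in Myc virus ko cells and 4855 to 6462 in Myc virus wt cells. It was 4494 to 5143 in GFP virus ko cells and 3913 to 4853 in GFP virus wt cells.

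The 12 markers of the myeloid progenitors themselves gave 0 calls between ko and wt with either virus, beside 5.46% of all genes with Myc and 4.11% with GFP. In the blocked fit 3 of 12 fell with Myc (Elane, Ctsg and Cebpa) and 1 of 12 with GFP (Cebpa), beside 8.03% and 7.12% of all genes. In that fit Cebpa, a transcription factor gene of the granulocyte lineage, was 1.82-fold lower with Myc (limma adjusted p = 0.0002433) and 1.38-fold lower with GFP (adjusted p = 0.00724). The summed intensity of the 12 was 55916 to 63776 in Myc virus ko cells and 64043 to 69338 in Myc virus wt cells. It was 66344 to 74729 in GFP virus ko cells and 72057 to 81162 in GFP virus wt cells. The sums of ko and wt thus did not overlap with the Myc virus, where ko was lower, and overlapped with the GFP virus. Of 15 genes of maturing neutrophils 1 rose (Mmp8, a granule protease) and 1 fell (Chil3) in ko with Myc, and 1 rose (Mmp8) with GFP. Of all genes 5.46% and 4.11% passed there. The blocked fit called 3 of 15 higher and 1 lower with Myc, and 2 higher with GFP. In that fit 6.05% of all genes rose and 8.03% fell with Myc, and 5.12% rose with GFP. Between viruses 12 of the 15 fell with Myc in ko cells and 8 in wt cells, with a median log2 difference of -0.89 and -0.85. Of all genes 13.2% and 9.28% passed there in either direction. With the block 15 and 14 fell, beside 10.4% and 8.25% of all genes. Of 10 measured monocyte genes, 8 B cell genes and 7 T cell genes 0 passed between ko and wt with either virus, beside 5.46% and 4.11% of all genes. In the blocked fit 2 of the 10 monocyte genes rose with each virus, Csf1r and Lyz2 with Myc and Csf1r and Adgre1 with GFP. Of all genes 6.05% and 5.12% rose in that fit.

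The 7 profiles were compared with each other over the 12 arrays, and those of Hoxa9 and Meis1 also with non-member genes. The measure was the root mean square difference between standardised log2 values, which is 0 for the same profile, 1.354 for an uncorrelated one and 1.915 for its mirror image. Hoxa9 differed from Hoxa5 by 0.283 and from Hoxa7 by 0.456, Meis1 from Pbx3 by 0.586, and Hoxa9 from Meis1 by 1.875. Meis1 thus ran close to a mirror image of Hoxa9 over these arrays, and Pbx3, at 1.802 from Hoxa9, was less close to one. The points share their 12 arrays and 4 groups, so these are descriptions only.

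Predicted genes, genes with only a clone or sequence name, and microRNA and small nucleolar RNA genes were left out of the search for like profiles. Of the remaining non-member genes, those most like Hoxa9 were Samd10 (0.22), Stradb (0.23) and Abca2 (0.24), on chromosomes 2, 1 and 2. Stradb, a pseudokinase gene, lay between 153 and 223 in Myc virus ko cells and between 370 and 440 in Myc virus wt cells. It lay between 173 and 244 in GFP virus ko cells and between 408 and 602 in GFP virus wt cells. Those most like Meis1 were Med12l (0.23), Dennd2c (0.24) and Nlk (0.28), on chromosomes 3, 3 and 11. Med12l, a relative of a Mediator subunit, lay between 333 and 839 in Myc virus ko cells and between 160 and 238 in Myc virus wt cells. It lay between 412 and 522 in GFP virus ko cells and between 174 and 225 in GFP virus wt cells.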

How the data were processed

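RNA of 12 samples was measured on mouse gene arrays from 200 ng of input. Per the submitters' processing notes, the deposited intensity values were made with RMA, which corrects background, normalises by quantiles and summarises probes; the software is not given in the sources used here. Deposited intensities are on a linear scale (17.7 to 24493), so log2 was taken with no pseudocount. The gene table gives exactly 1 symbol for 21789 of the 35556 probe sets, several for 1621 and no entry for 12146; the brightest per gene was kept, which left 19938 genes with no filter on dim ones. Groups were taken from the sample titles. Tests were run with limma 3.58.1 under R 4.3.3, using lmFit and eBayes on 4 group means and all 12 arrays (8 residual degrees of freedom) and Benjamini-Hochberg adjusted p under 0.05 over all genes as the threshold. The number of arrays limits the precision. Log2 values of arrays of a group correlated at 0.9878 to 0.9957, and 0 pairs were identical.

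The replicate numbers were read as pairing the arrays, from the values, since the labels give the numbers only: over 18 same-numbered pairs of arrays the deviations from their group means had correlations of 0.401 to 0.848. A fit with the number as a block is given beside a result where it changes the call. Members and gene lists were chosen with earlier results of these data known. Every member is named in every comparison, and from each list up to 4 genes with the lowest adjusted p among those past the threshold; genes that passed only with the block are named after their values were seen. The alternatives were the block, a second quantile normalisation, centring, array weights, a trended and robust prior, a fit of the groups compared alone, bright genes alone, all probe sets, leaving out each array, and, chosen after seeing the data, averages over the other factor. Such an average is not a test of a single virus or a single genotype. No set test was run, and the background correction could not be varied.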

Additional observations from a re-analysis of the deposited data

How the results depend on the processing

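With the replicate number as a block, more genes passed in every comparison: 2808 in place of 1089 for Zfx ko against wt with the Myc virus, 2440 in place of 819 with the GFP virus, 4959 in place of 2626 for Myc against GFP in ko cells, 4082 in place of 1851 in wt cells and 1 in place of 0 (Nck2) for the interaction. Members called with the block were 5 in place of 3 and 5 in place of 2 for Zfx with the Myc and the GFP virus, and 1 in place of 0 for Myc in each genotype; the block ended no member's call. Fitting only the groups compared gave 562 genes and 1 member (Hoxa9) for Zfx with the Myc virus and 1418 genes for Myc in ko cells. Array weights gave 1610 genes and 4 members for Zfx with the GFP virus and 3209 genes for Myc in wt cells. With only bright genes, which leaves out Hoxa3, Hoxa5 and Hoxa10, 1 member passed for Zfx with the GFP virus. Averages over the other factor gave 2406 genes for Zfx, with 4 members, and 4236 genes for Myc. The share of higher calls for Zfx was 31.9% with the Myc virus and 28.4% with the GFP virus, against 43% and 41.8% with the block and 34% and 43.4% with array weights. Centring and a second quantile normalisation shifted the median of all genes by less than 0.1 on the log2 scale.

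Leaving out 1 array at a time gave 578 to 1098 genes for Zfx with the Myc virus, 410 to 802 with the GFP virus, 1395 to 2555 for Myc in ko cells, 838 to 2044 in wt cells and 0 to 4 for the interaction. The lowest counts came without Myc virus wt replicate 3, GFP virus wt replicate 3, Myc virus ko replicate 3 and GFP virus wt replicate 3. Interaction calls came without Myc virus ko replicate 1 (Lin28b, Pkhd1l1, Epb42 and Arpin) and without Myc virus wt replicate 1 (Lgr4). Members called ranged from 2 to 3 for Zfx with each virus and from 0 to 1 for Myc in ko cells, where Meis1 passed without Myc virus ko replicate 1.

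Directions turned only for differences that were not called. In single-array omissions these ranged, for Zfx with the Myc virus, from -0.20 to 0.007 for Hoxa10. For Myc in ko cells they ranged from -0.0627 to 0.004 for Hoxa3, -0.0033 to 0.0388 for Hoxa5 and -0.13 to 0.14 for Hoxa7. For Myc in wt cells they ranged from -0.0199 to 0.0132 for Hoxa3, -0.0983 to 0.081 for Hoxa7, -0.0847 to 0.10 for Hoxa10, -0.10 to 0.14 for Meis1 and -0.20 to 0.41 for Pbx3. For the interaction they ranged from -0.0603 to 0.0064 for Hoxa3, -0.12 to 0.14 for Hoxa7, -0.0827 to 0.18 for Hoxa9 and -0.16 to 0.49 for Pbx3. The average over genotypes was -0.0396 for Hoxa5, -4e-04 for Hoxa7 and 0.32 for Meis1. For Myc in wt cells Hoxa3 was 0.0095 after a second quantile normalisation, 0.0127 after centring and 0.001 with array weights, Hoxa7 was 0.0097 after centring, and Meis1 was 0.0303 with array weights. The cause of these moves was not tested. Array signal limits Hoxa3, Hoxa5 and Hoxa10, which were under the array's median on all 12 arrays.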
